A study of Mus musculus with 23 samples.

Results

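The contractile apparatus genes encode the proteins that slide along each other when a cell contracts. They were taken by symbol from the table of Inv1DelCTCF against Inv1: every myosin heavy chain (Myh), myosin light chain (Myl), troponin (Tnnc, Tnni, Tnnt), tropomyosin (Tpm) and myosin binding protein C (Mybpc) gene whose symbol continues with a digit, together with the alpha actins Acta1 and Actc1. Pseudogenes were left out. This gave 46 of the 34682 rows, which carry 43 distinct symbols because Myh2 and Myh8 are listed in more than 1 row. Of these, 31 rows belong to striated muscle, 9 to non-muscle cells and 1 (Myh11) to smooth muscle. Tpm1, Tpm2 and Tpm3 were kept apart, since these genes make isoforms of both kinds, and the remaining 2 rows are Myl10 and the kinase gene Tnni3k.

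The libraries were made from RNA of distal forelimbs of E11.5 mouse embryos, taken by micro-dissection. Both groups compared carry inversion 1, a CRISPR/Cas9-engineered inversion that takes an enhancer cluster from its native place beside Epha4 to a gene-dense region. The group Inv1 (3 libraries) carries the inversion alone, and the group Inv1DelCTCF (2 libraries) by its name also lacks a binding site of CTCF, a protein found at the boundaries of chromatin domains. The labels call the genotype of both groups mutant, and their cell type field reads G4 ESC, an embryonic stem cell line, beside the tissue of distal forelimb. The number of clones and the zygosity of the alleles are not given in the sources used here. The 4 tables of inversions against wild type list 79 genes around the inversion and hold 0 of the contractile genes, so wild type levels are not analysed here.

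In striated muscle, thick filaments of myosin pull on thin filaments of actin. Tropomyosin lies along the thin filament, and the troponin complex (C binds calcium, I inhibits, T binds tropomyosin) opens it when calcium rises, while myosin binding protein C ties the myosin heads to the thick filament. Most of these proteins come in slow, fast, cardiac and embryonic forms from separate genes. Non-muscle cells use related myosins, with light chains that are switched by phosphorylation, for cell shape, division and movement. In the limb bud, muscle cells descend from precursors that migrate in from the somites, so the striated genes report on a minority of the cells and the non-muscle genes on nearly all of them.

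Promoter sequences of 5 members are shown because the results below turn on these genes: Mybpc1, the called striated gene, Mybpc2, its nearest relative, Actc1 and Myh3, the most abundant striated actin and myosin, and Myh9, the called non-muscle gene. Each is the 250 bases before the RefSeq start of the gene in the build GRCm38.p6, read 5′ to 3′ on the strand of the gene, and 40 of the 43 symbols have such an entry. Capitals mark E-boxes (CANNTG, the binding motif of MyoD-type factors), the CArG box (the binding motif of serum response factor) and TATAAA, each searched on both strands.
Mybpc1 (chr10:88605153-88605402, minus strand): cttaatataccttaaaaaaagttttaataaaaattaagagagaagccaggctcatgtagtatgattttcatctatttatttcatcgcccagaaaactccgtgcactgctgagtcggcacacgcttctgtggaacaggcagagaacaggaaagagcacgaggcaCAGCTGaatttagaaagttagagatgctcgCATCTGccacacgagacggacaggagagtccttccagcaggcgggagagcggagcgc
Mybpc2 (chr7:44524670-44524919, minus strand): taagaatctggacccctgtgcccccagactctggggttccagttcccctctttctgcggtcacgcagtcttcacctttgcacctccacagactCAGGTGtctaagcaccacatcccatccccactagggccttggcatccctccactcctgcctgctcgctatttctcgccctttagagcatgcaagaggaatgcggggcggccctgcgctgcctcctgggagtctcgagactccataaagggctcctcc
Actc1 (chr2:114052876-114053125, minus strand): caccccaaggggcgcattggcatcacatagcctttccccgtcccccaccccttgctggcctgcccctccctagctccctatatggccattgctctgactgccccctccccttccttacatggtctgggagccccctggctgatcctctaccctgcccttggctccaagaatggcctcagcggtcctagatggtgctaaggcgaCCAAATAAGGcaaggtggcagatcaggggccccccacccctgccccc
Myh3 (chr11:67078050-67078299, plus strand): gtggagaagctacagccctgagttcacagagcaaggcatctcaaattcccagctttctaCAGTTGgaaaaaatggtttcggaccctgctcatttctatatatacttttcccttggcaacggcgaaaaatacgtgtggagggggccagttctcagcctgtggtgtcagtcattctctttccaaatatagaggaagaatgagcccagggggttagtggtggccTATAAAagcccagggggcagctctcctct
Myh9 (chr15:77842176-77842425, minus strand): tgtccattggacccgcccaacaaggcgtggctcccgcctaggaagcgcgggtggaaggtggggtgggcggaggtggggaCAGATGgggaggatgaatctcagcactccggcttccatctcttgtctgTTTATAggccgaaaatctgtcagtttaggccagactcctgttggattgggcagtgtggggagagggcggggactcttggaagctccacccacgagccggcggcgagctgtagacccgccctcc

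In these windows Mybpc1 has 2 E-boxes, which begin 87 and 57 bases before the start, and Mybpc2 has 1, at 157 bases. The CArG box of Actc1 begins 47 bases before the start, and Myh3 has TATAAA at 29 bases and an E-box at 191. In Myh9 the motif TATAAA lies on the opposite strand, 123 bases before the start. Over the striated genes with an entry, 22 of 26 had an E-box, where 69.3% of all 27025 genes of the promoter table did, so the motif is common. A CArG box was found in 5 of 26 (Acta1, Actc1, Myh4, Myl3 and Myl7) against 1.62% of all genes, and TATAAA in 9 of 26 against 14.3%. The CATTCC motif (MCAT, known from muscle promoters) was found in 11 of 26 striated genes against 14.4% of all genes. Among the 9 non-muscle genes, Myl6 and Myl9 had a CArG box. These matches describe letters in a window and are no evidence of binding.

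The table gives no values per library, but the whole reads behind its pooled means could be recovered, as described under the processing, for every contractile row. The 5 libraries are named here Inv1 library a, b and c and Inv1DelCTCF library a and b, in order of depth, with 11937475 to 30600052 reads over the resolved genes. Values below are reads divided by the authors' size factor of the library (normalised counts). Inv1 library b stands apart from the other 4 in muscle genes. The muscle markers Myog, Ttn, Actn2, Des and Chrna1 were each at their lowest there, and results that rest on that library are given with and without it. Of these markers, Des lies among the genes around the inversion. The tissue label was met by its markers: Hoxa13, a gene of the distal limb bud, had normalised counts of 1194 to 1637 over the 5 libraries.

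The striated genes had higher levels in Inv1DelCTCF than in Inv1, but only Mybpc1 passed the authors' test. Summed over the 22 striated rows with a mean of at least 10, normalised counts were 11105, 4198 and 9851 in Inv1 and 15523 and 15074 in Inv1DelCTCF. Inv1 library b was thus far below the other libraries, and both Inv1DelCTCF libraries were above all 3 of Inv1. The ratio of the group means was 1.82, and 1.46 without Inv1 library b. In dissected distal forelimbs, fewer muscle cells and less RNA per muscle cell cannot be told apart. Other differences between the samples were not tested.

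Counted over single rows, 19 of the 22 had both Inv1DelCTCF libraries above all Inv1 libraries, the exceptions being Tnni3, Mybpc2 and Myh1. Of the 14721 resolved genes with such a mean, 23.4% lay this way and 24% the opposite way. Inv1 library b was the lowest of the 5 in 20 of the 22 rows, against 26.9% of all genes, and it was under 0.5 of both other Inv1 libraries in 13 of the 22, against 1.47%. Most muscle rows vary together over the same 5 libraries, so counts of rows, here and below, are not counts of separate observations. With 3 libraries against 2, an exact permutation test cannot give a p below 0.1.

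**Figure D1:**
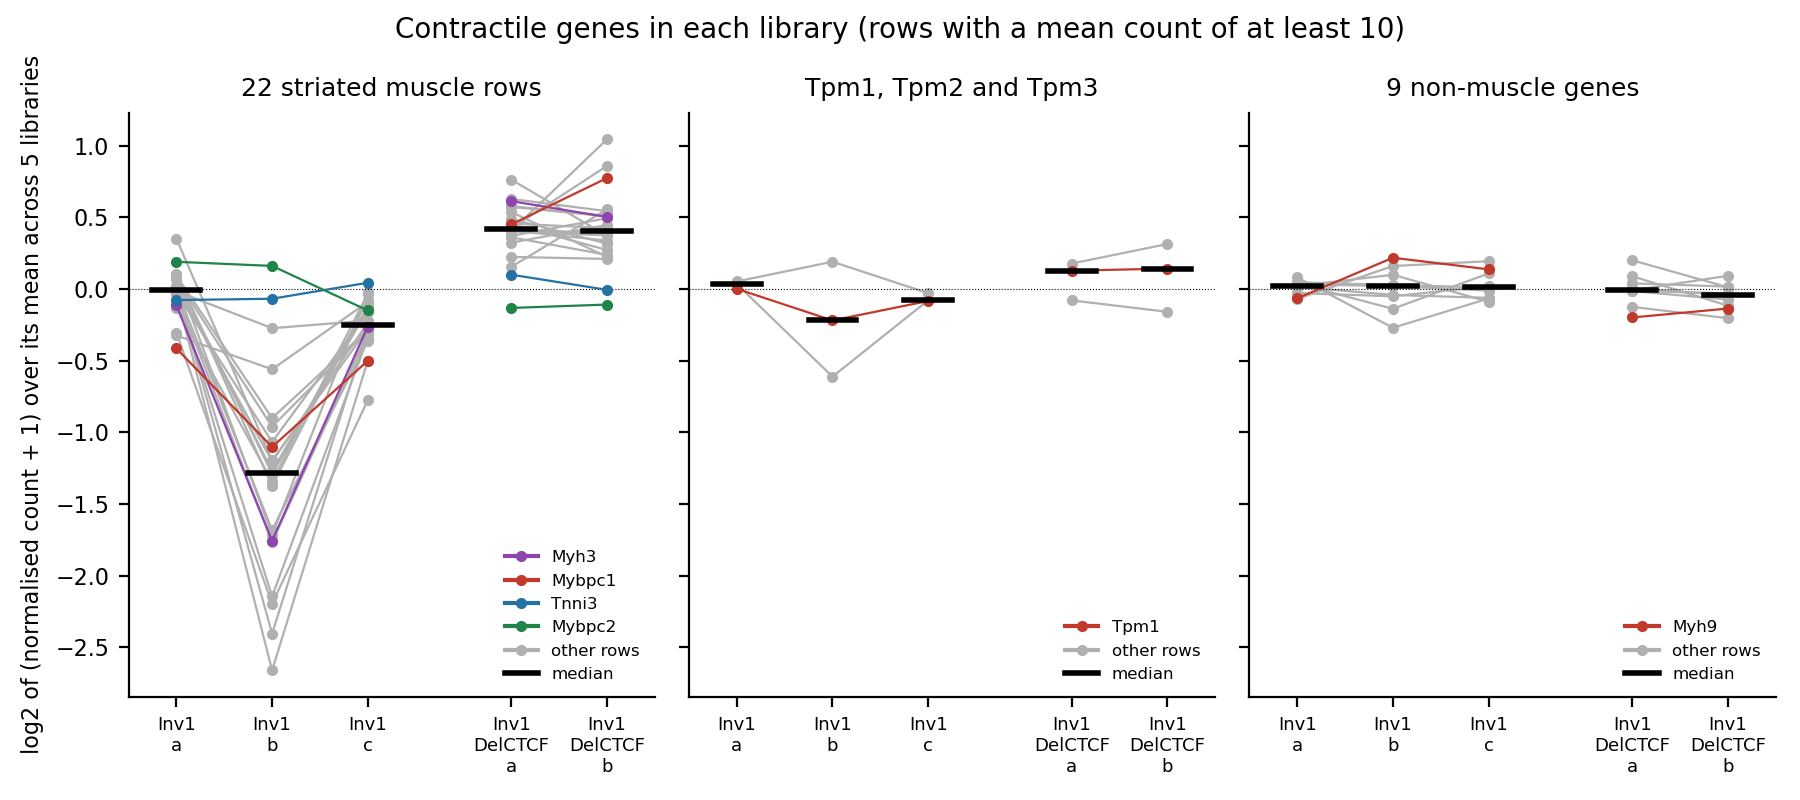
Normalised count + 1 of each contractile row relative to its mean over the 5 libraries, on a log2 scale, with 1 point per row and library, lines joining the points of a row within a group and black bars for the median. The striated median is -1.28 in Inv1 library b and 0.42 and 0.41 in the Inv1DelCTCF libraries, while Tnni3 and Mybpc2 do not dip in Inv1 library b and the non-muscle genes stay near 0.

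In the authors' deposited table, with its sign reversed to make values positive where Inv1DelCTCF is higher, the median log2 change over the 28 striated rows with a value was 0.74. It was positive in 26 of them, against 10970 of 21941 genes and a median of 0.00 over the whole table. Of the 13 striated rows that carry an adjusted p, 1 rose and 0 fell at an adjusted p under 0.05, where 11.7% of all 11218 genes with an adjusted p were called per the authors' deposited table, 3.81% higher and 7.89% lower. Without adjustment, 5 of 28 striated rows had a p under 0.05 per the authors' deposited table, all higher in Inv1DelCTCF, against 5.89% of genes in that direction.

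Mybpc1 encodes the slow form of myosin binding protein C. Its normalised counts were 407, 252 and 384 in Inv1 and 743 and 930.0 in Inv1DelCTCF. The groups did not overlap, and the lowest Inv1DelCTCF library was well above the highest of Inv1. It was 2.40-fold higher (95% interval 1.84 to 3.12) per the authors' deposited table, which on the log2 scale is 1.26 (SE 0.19, adjusted p = 4.11e-08). Without Inv1 library b the ratio of the means was 2.12.

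The relatives of Mybpc1 differed from it. Mybpc2, the fast form, had normalised counts of only 29.5, 28.9 and 23.1 in Inv1 and 23.4 and 23.8 in Inv1DelCTCF, a log2 change of -0.21 (SE 0.48) without an adjusted p per the authors' deposited table. Mybpc3, the cardiac form, was at 0 in all libraries. Mybpc1 therefore made up 88.9% to 93.9% of the binding protein C level per kilobase of transcript in Inv1, and 96.7% and 97.3% in Inv1DelCTCF.

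The SE of Mybpc1 was the smallest of the 13 striated rows with an adjusted p, with 0.30 to 0.75 for the other 12 per the authors' deposited table. In Inv1 library b Mybpc1 stood at 0.638 of the mean of the other Inv1 libraries, while the median striated row stood at 0.412. Tnni3, Mybpc2, Tnni2 and Myh7b, which have no adjusted p, were nearer to 1, at 0.778 to 1.10. As a share of the summed striated count, Mybpc1 was at 3.67%, 6.01% and 3.89% in Inv1 and at 4.79% and 6.17% in Inv1DelCTCF, so on that scale the groups overlap through library b.

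Among the thick filament genes, Myh3, the embryonic myosin heavy chain, was the most abundant. Its normalised counts were 2310.0, 739 and 2085 in Inv1 and 3826 and 3543 in Inv1DelCTCF. It was 2.15-fold higher, but with a 95% interval of 0.94 to 4.95 per the authors' deposited table, and it was not called (adjusted p = 0.235). Without Inv1 library b the log2 ratio was 0.75, against 1.11 with it.

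Myh3 supplied most of the sarcomeric heavy chain level in every library, 79.5% to 84.5% per kilobase. Myh15, an ancient heavy chain gene, came next with 6.15% to 8.52%, and its counts of 194, 83.3 and 208 in Inv1 and 293 and 286 in Inv1DelCTCF followed the common pattern. Myh7, the slow chain, which the heart also uses, was lower still in Inv1 library b, with 87.9, 15.8 and 72.1 in Inv1 and 150.0 and 114 in Inv1DelCTCF. Myh8, the perinatal chain, is counted mainly in its row Myh8_copy2, with 75.8, 11.4 and 54.5 against 104 and 141. Neither was called, and neither has an adjusted p, since the authors' deposited table gives none below a mean of 113.

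The other heavy chain genes were low. Myh7b had 74.5, 63.1 and 87.8 in Inv1 and 104 and 138 in Inv1DelCTCF, with an unadjusted p of 0.0135 per the authors' deposited table and no adjusted one. Myh6, the alpha chain of the heart, had 12.3 to 25.5 in Inv1 and 29.0 and 33.0 in Inv1DelCTCF. The adult fast chains were near the detection limit: Myh4 had 1.8 to 9.4 in Inv1 and 16.0 and 25.5 in Inv1DelCTCF (unadjusted p = 0.0249 per the authors' deposited table), Myh1 4.4 to 14.8 and 13.6 and 14.9, and Myh2 0 to 6.5 and 2.1 and 6.8. Myh13, the extraocular chain, had 4.4 to 9.2 and 6.8 and 8.5. Myh3, Myh2, Myh1, Myh4, Myh8 and Myh13 are related genes that follow each other on chromosome 11, as do Myh6 and Myh7 on chromosome 14. How reads of similar stretches were divided among them was not tested, so that division is uncertain.

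**Figure D2:**
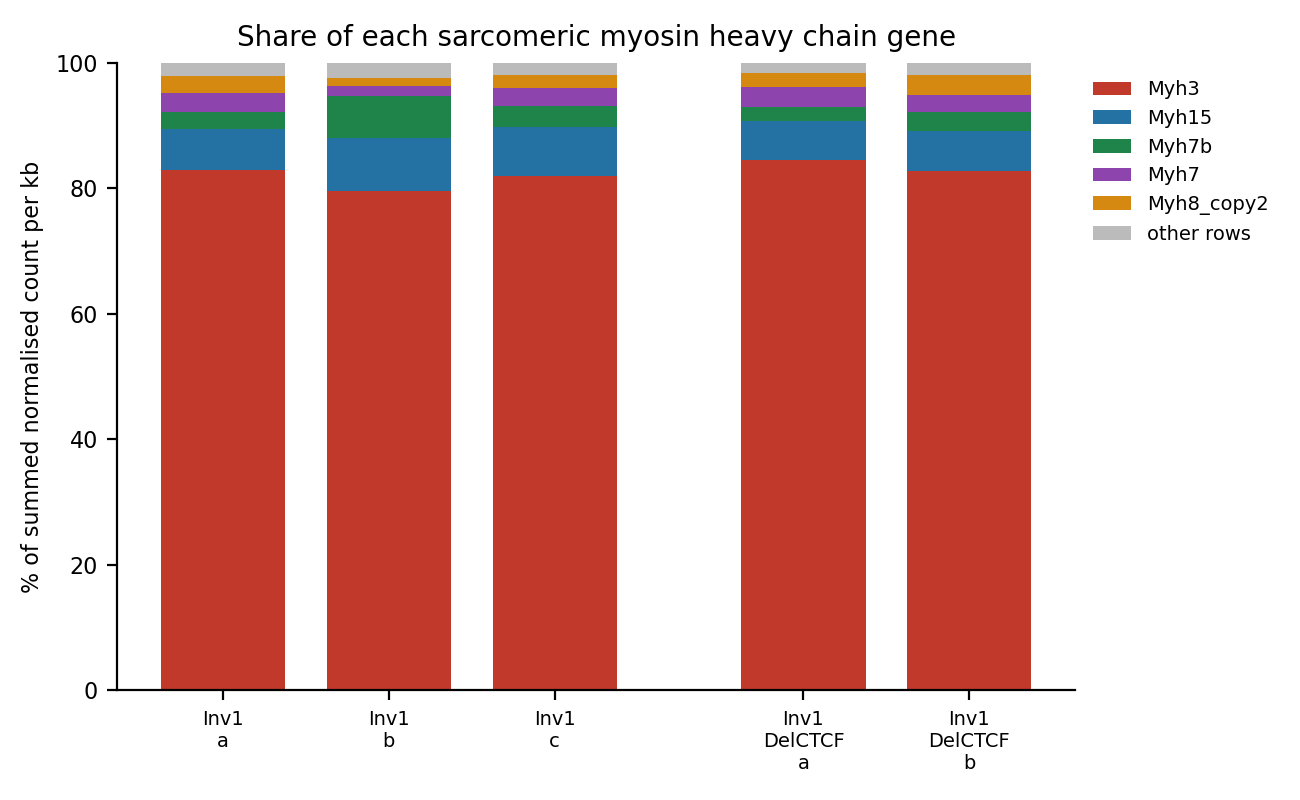
Share of each sarcomeric myosin heavy chain row in their summed normalised count per kilobase of longest transcript, in percent, 1 stacked bar per library. Myh3 takes 79.5% to 84.5% of every bar, and Myh7b takes 6.64% in Inv1 library b and 2.25% to 3.38% in the others.

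The light chains followed the heavy chains. Myl1, the fast skeletal alkali light chain, had 616, 184 and 509 in Inv1 and 940 and 896 in Inv1DelCTCF (2.10-fold, 95% interval 0.90 to 4.94, adjusted p = 0.265 per the authors' deposited table). Myl4, the embryonic and atrial form, had 194, 43.8 and 155 against 305 and 288. In both genes the Inv1DelCTCF libraries were the 2 highest and Inv1 library b the lowest. Of the cardiac and slow light chains, Myl7 had 1.8 to 4.0 in Inv1 and 3.2 and 3.4 in Inv1DelCTCF, and Myl2 had 1, 0 and 0 reads in Inv1 and 2 and 1 in Inv1DelCTCF. Myl3 had 6, 2 and 3 reads in Inv1 and 0 in both Inv1DelCTCF libraries, which is too few for a fold.

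On the thin filament, Actc1, the alpha actin of heart and embryonic skeletal muscle, was the most abundant striated member. Its normalised counts were 4099, 1472 and 3626 in Inv1 and 5064 and 4825 in Inv1DelCTCF (1.61-fold, 95% interval 0.76 to 3.41, adjusted p = 0.442 per the authors' deposited table). Acta1, the skeletal alpha actin, had 474, 135 and 438 against 626 and 555. Both followed the common pattern, and Actc1 supplied 88.8% to 91.5% of their summed level per kilobase in all libraries.

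Actc1 and Myh3 differed in opposite directions as shares of the striated total. Actc1 took 36.9%, 35.1% and 36.8% in Inv1 and 32.6% and 32.0% in Inv1DelCTCF, and Myh3 took 20.8%, 17.6% and 21.2% against 24.6% and 23.5%. Neither share overlapped between the groups, and neither was tested. Such separation was common: the shares of Tnnt1, Tnni1, Tnni3, Tnni2 and Mybpc2 also lay lower, and those of Myl1, Tnnc1, Myl4 and Myh4 higher. In normalised counts, 23.4% of all genes with a mean of at least 10 lay above and 24% below without overlap. Shares of 1 total depend on each other.

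Troponin C, the calcium sensor, had 2 genes with reads. Tnnc1, the slow and cardiac form, had 343, 106 and 266 in Inv1 and 510 and 487 in Inv1DelCTCF (2.09-fold, 95% interval 0.92 to 4.75 per the authors' deposited table). Tnnc2, the fast form, had 171, 64.9 and 145 against 233 and 187 (1.65-fold, 1.04 to 2.62, adjusted p = 0.146 per the authors' deposited table). The share of Tnnc1 in their level per kilobase was 61.4% to 66.1% in Inv1 and 68.0% and 71.6% in Inv1DelCTCF.

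Troponin T, which anchors the complex on tropomyosin, was mostly the slow form Tnnt1. It had 920, 446 and 838 in Inv1 and 1246 and 1228 in Inv1DelCTCF (1.68-fold, 95% interval 0.98 to 2.90 per the authors' deposited table). Tnnt2, the cardiac form, which embryonic skeletal muscle also makes, had 337, 144 and 282 against 430 and 468. Tnnt3, the fast form, had 128, 62.2 and 99.8 against 162 and 158. Among the striated rows it came nearest to a call after Mybpc1 (1.65-fold, 1.10 to 2.48, adjusted p = 0.0954 per the authors' deposited table). The division among the 3 forms differed little, with Tnnt1 at 79.8% to 81.7% per kilobase in all libraries.

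Troponin I, the inhibitor, did not follow 1 pattern. Tnni1, the slow form, had 420, 165 and 367 in Inv1 and 500.1 and 545 in Inv1DelCTCF and showed the common pattern. Tnni2, the fast form, had 68.4, 57.0 and 59.2 against 80.9 and 80.1, with little dip in Inv1 library b. Tnni3, the cardiac form, had 105, 106 and 114.6 against 119 and 111, so its groups overlap (log2 change 0.09, SE 0.23, no adjusted p per the authors' deposited table).

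As a result Tnni1 made up 29.8% of the troponin I level per kilobase in Inv1 library b and 47.1% to 54.6% in the other 4 libraries, and Tnni3 made up 45.3% there and 26.2% to 34.7% elsewhere. Tnni3 and Mybpc2 are the 2 striated rows with a mean of at least 10 that were not lowest in Inv1 library b. Tnni3 lies next to Tnnt1 on chromosome 7, and whether reads of 1 of these genes were counted for the other was not tested.

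**Figure D3:**
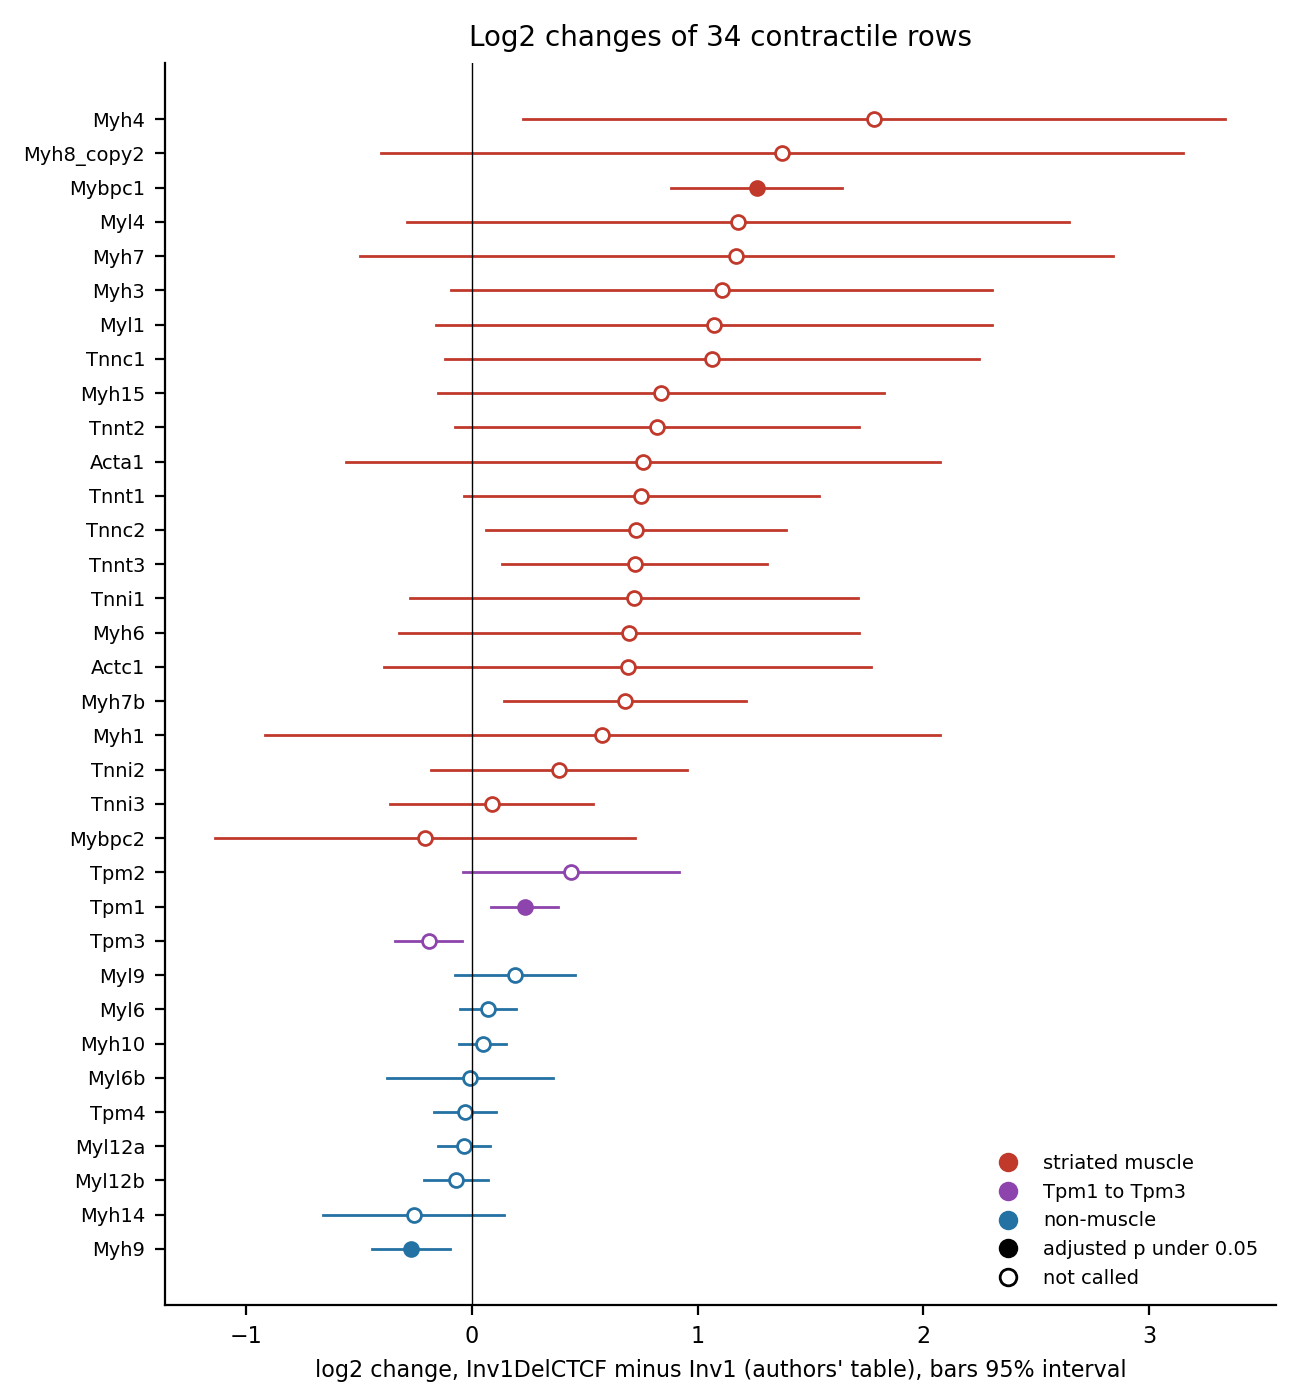
Log2 changes of the 34 contractile rows with a mean of at least 10 per the authors' deposited table, Inv1DelCTCF minus Inv1, with 95% intervals from the SE, filled where the adjusted p is under 0.05. Mybpc1, Tpm1 and Myh9 are filled, and most striated intervals are wide and include 0.

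The 3 tropomyosin genes with both kinds of isoform differed in direction. Tpm1 rose, with normalised counts of 8917, 7651 and 8407 in Inv1 and 9736 and 9835 in Inv1DelCTCF (1.18-fold, 95% interval 1.06 to 1.30, adjusted p = 0.0265 per the authors' deposited table). Tpm2 had 2894, 1848 and 2675 against 3196 and 3512 and did not pass (adjusted p = 0.238 per the authors' deposited table). Tpm3 had 14286, 15718 and 13496 against 13035 and 12335 and did not pass either (log2 change -0.19, SE 0.08, adjusted p = 0.0788 per the authors' deposited table).

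Inv1 library b was the lowest of the 5 for Tpm1 and Tpm2 and the highest for Tpm3. Isoforms are not separated in these counts, so the muscle and non-muscle products of each gene cannot be told apart. The call of Tpm1 did not hold with adjustment over every row with a p (adjusted p = 0.0509). By limma on the recovered reads Tpm1 was not called with all libraries (log2 change 0.24, adjusted p = 0.0783) or without Inv1 library c (adjusted p = 0.157). By limma it was called without Inv1 library a (adjusted p = 0.0363) and without library b (adjusted p = 0.0412). Its call also held when a trend in GC content and transcript length was subtracted (adjusted p = 0.0312).

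The non-muscle genes were abundant and differed little between the groups. Their summed normalised counts were 55633, 57380 and 55387 in Inv1 and 55315 and 54990 in Inv1DelCTCF. The median log2 change of the 9 genes was -0.03, and 1 of 9 was called, lower, per the authors' deposited table, where 7.89% of all genes were called lower and 11.7% in either direction. Their SEs ran from 0.0535 to 0.205 per the authors' deposited table, so smaller changes could be seen here than among the striated genes.

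Myh9, the heavy chain of non-muscle myosin IIA, was the called gene. It had 7006, 8527 and 8060.5 in Inv1 and 6386 and 6668 in Inv1DelCTCF, at 0.83 of the Inv1 level (95% interval 0.74 to 0.94, adjusted p = 0.0276 per the authors' deposited table). The groups did not overlap, and Inv1 library b was the highest. The call ended when a trend in GC content and transcript length was subtracted (log2 change -0.10, adjusted p = 0.613), and with adjustment over every row with a p (adjusted p = 0.0528). By limma on the recovered reads Myh9 was not called with all libraries (log2 change -0.26, adjusted p = 0.0873) nor without Inv1 library b (-0.20, adjusted p = 0.0592).

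Myh10, the heavy chain of myosin IIB, had 16291, 16032 and 16851 in Inv1 and 17073 and 16806 in Inv1DelCTCF, with a 95% interval of 0.96 to 1.11 for the fold per the authors' deposited table. Myh14, of myosin IIC, was far lower, with 152, 178 and 182 against 146 and 138. Per kilobase Myh10 made up 63.7% to 68.4% of the 3 chains in Inv1 and 70.1% and 71.3% in Inv1DelCTCF, the complement of Myh9.

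Of the regulatory light chains of non-muscle myosin, Myl12a had 4864 to 5013 in Inv1 and 4800 and 4858 in Inv1DelCTCF, and Myl12b 1999 to 2050.4 and 1886 and 1964. Myl9, which smooth muscle shares, had 692, 542 and 624 against 751 and 659. The essential light chain Myl6 had 6582 to 6946 and 6828 and 7324, and its neighbour Myl6b 174 to 207 and 177 and 204. Tpm4 had 16017 to 18256 against 16532 and 17105. None of these 6 genes was called, and each 95% interval of the fold lay within 0.77 and 1.37 per the authors' deposited table. Myh11, the smooth muscle heavy chain, had only 8.3 to 10.7 in Inv1 and 8.5 and 11.7 in Inv1DelCTCF.

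The remaining rows held almost no reads. Mybpc3, Myl10, Myh8 and Myh2_copy2 were at 0 in all libraries. Tnni3k had 1 read in Inv1 library b and 1 in Inv1DelCTCF library a, and Myh8_copy3 had a mean of 1.2.

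Per kilobase of longest transcript, the most abundant contractile genes were Tpm4, with a mean normalised count of 8007 per kilobase, Tpm3 (5802) and Tpm1 (3083). Actc1 stood at 2592 on this scale, close to Myl12a (2530) and above Myh10 (2132). The next striated genes were Tnnt1 (884), Myl1 (581), Tnnc1 (475) and Myh3 (415), so Myh3 was the second of the striated rows in counts and the fifth per kilobase. The 9 non-muscle genes together exceeded the striated genes 2.76-fold per kilobase, with 2.02-fold and 2.07-fold in the Inv1DelCTCF libraries, 2.73-fold and 2.99-fold in Inv1 libraries a and c and 7.18-fold in Inv1 library b. With the median in place of the longest transcript the ratio was 4.80, and without division by length 4.99.

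Leaving out Inv1 library b made the striated differences smaller and their spread smaller too. The log2 ratio of the group means shrank in 21 of the 22 rows, and its median went from 0.75 to 0.51, with 21 of 22 still positive. By limma on the recovered reads without that library, 13 of the 22 striated rows were called higher, where 3.68% of 14745 genes were called in that direction. They were Acta1, Actc1, Mybpc1, Myh15, Myh3, Myh7, Myh8_copy2, Myl1, Myl4, Tnnc1, Tnni1, Tnnt1 and Tnnt2. With all 5 libraries the same method called 1 of them, Mybpc1, where 0.849% of 14721 genes were called in that direction. Over all 34 contractile rows of that size limma called 15 without Inv1 library b, where 8.24% of genes were called in either direction, and 1 with all libraries (2.31% of genes). Without Inv1 library a it called 11 of 34 (6.89% of genes). With Inv1 library c or either Inv1DelCTCF library left out, it called 0 of all genes, although 2174 to 3361 genes had an unadjusted p under 0.05. Library b was left out after its values were seen, so the spread that remains between the Inv1 libraries understates the spread between samples.

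**Figure D4:**
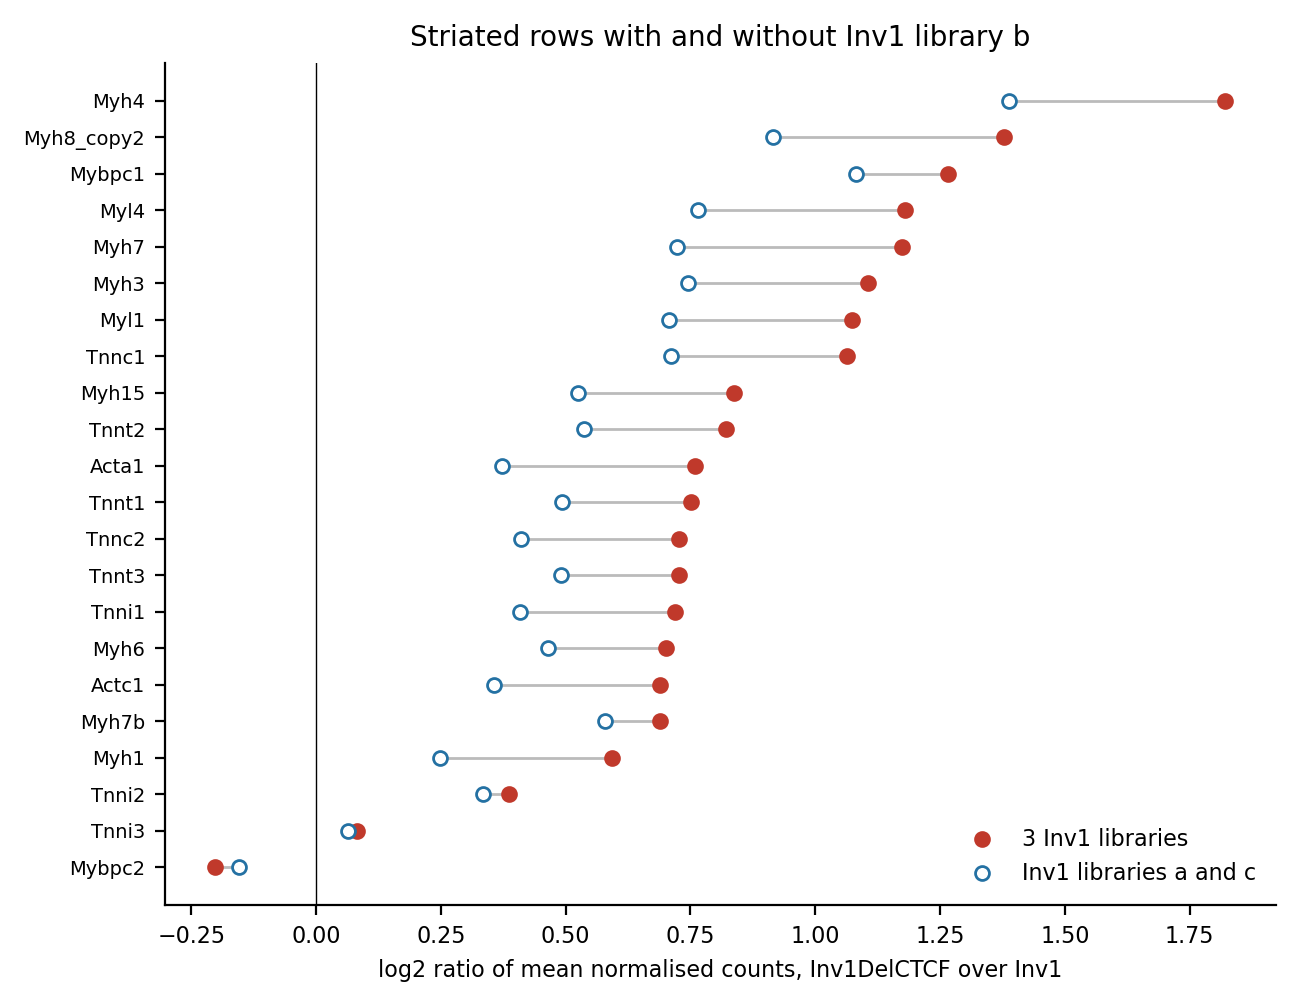
Log2 ratio of mean normalised counts, Inv1DelCTCF over Inv1, for the 22 striated rows with all 3 Inv1 libraries (filled) and without Inv1 library b (open). The open points lie to the left in 21 of 22 rows, and those of all rows but Mybpc2 are above 0.

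Other genes of muscle were also lowest in Inv1 library b, in 34 of 37 further sarcomere genes, 28 of 29 genes of excitation and metabolism and 15 of 19 myogenic regulators with a mean of at least 10. Of 44 further sarcomere genes, 1 of the 17 with an adjusted p rose, Myom1 of the M-band, with 332, 193 and 321 in Inv1 and 492 and 424 in Inv1DelCTCF (log2 change 0.70, SE 0.22, adjusted p = 0.0205 per the authors' deposited table). The median of those with a mean of at least 10 was 0.76. Of all genes with an adjusted p, the authors' test called 3.81% higher. The fast regulatory light chain Mylpf, whose symbol has no digit, had 761, 315 and 647 against 1154 and 1149.7, and the giant spring protein titin (Ttn) 799, 251 and 553 against 987 and 903. Obsl1 and Speg, which lie among the genes around the inversion, had log2 changes of 0.08 (SE 0.09) and -0.14 (SE 0.11) per the authors' deposited table. Des, which lies there too, had 356, 157 and 338 in Inv1 and 428 and 422 in Inv1DelCTCF. Its log2 change was 0.58 (SE 0.46) and was not called per the authors' deposited table.

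Of 33 genes of excitation and muscle metabolism, 1 of 16 rose, Chrnb1, a subunit of the muscle acetylcholine receptor, with 272, 147 and 260 in Inv1 and 369 and 409 in Inv1DelCTCF (log2 change 0.78, SE 0.24, adjusted p = 0.0179 per the authors' deposited table). The calcium pump gene Atp2a1 had 840, 393 and 813 against 1034 and 1189 and did not pass. The median of this list was 0.61, again over genes with a mean of at least 10. Over all genes with an adjusted p, 3.81% were called higher.

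Taken as a list, the genes that specify muscle differed less, but single genes varied. Of 20 myogenic regulators, 0 of 17 passed the authors' Wald test, and the median log2 change of those 17 was 0.18 per the authors' deposited table. An unadjusted p under 0.05 was found for 2 of 20, Eya4 and Cdon, both higher, against 5.89% of genes in that direction. Eya4 and Mef2c had log2 changes of 0.73 (SE 0.36) and 0.63 (SE 0.34) per the authors' deposited table. Eya4 had 974.6, 515.3 and 898.5 in Inv1 and 1351.5 and 1286.0 in Inv1DelCTCF. Myog, the regulator of differentiation, had 1249.6, 634 and 1216 in Inv1 and 1487 and 1550.0 in Inv1DelCTCF. Myod1, which acts earlier, had 806, 541 and 834 against 826 and 818, and Myf5 had 195, 148 and 190 against 174 and 182. For Myod1 and Myf5, Inv1 library b was still the lowest, and the Inv1DelCTCF libraries did not lie above both libraries a and c of Inv1.

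The genes that control non-muscle actomyosin moved in both directions. Of 33 with an adjusted p, 3 rose (Rock2, Tmsb4x and Cald1) and 6 fell (Srf, Actb, Actg1, Pfn1, Zyx and Limk1) per the authors' deposited table, with a median of -0.07. Of all genes with an adjusted p, 3.81% were called higher and 7.89% lower. After a trend in GC content and transcript length was subtracted, 3.64% of all genes were called in either direction. The calls of this list, and those of the other pathway and marker lists, were not rechecked on that scale. Srf, whose protein binds the CArG box, had 2185, 2361 and 2338 in Inv1 and 1758 and 1656 in Inv1DelCTCF (log2 change -0.42, SE 0.08, adjusted p = 1.67e-05 per the authors' deposited table). The cytoplasmic actins Actb and Actg1 had log2 changes of -0.55 (SE 0.05) and -0.37 (SE 0.07) per the authors' deposited table. Both fell, whereas the striated actins had positive log2 changes that did not pass the test.

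Markers of other cells moved with the same library. In Inv1 library b the 7 cartilage genes with a mean of at least 10 and a count per library summed to 15845, against 20092 to 22519 elsewhere, and the 6 Schwann precursor genes to 964, against 1384 to 1626. The 10 distal limb bud genes summed to 61811, against 52161 to 56431, and the 11 surface ectoderm genes to 14748, against 11306 to 13569. Lower in Inv1DelCTCF per the authors' deposited table were 4 of 10 distal genes (Hoxa13, Hoxd12, Jag1 and Evx2) and 5 of 11 ectoderm genes (Krt5, Krt8, Krt18, Cdh1 and Cldn6), and 0 of either list were called higher. Of all genes with an adjusted p, 7.89% were called lower and 3.81% higher. Called higher were Col11a1 of the cartilage list (1 of 7 with an adjusted p) and Shox2 and Hoxa9 of the proximal limb bud list (2 of 9). The 10 macrophage genes all had positive log2 changes and 0 of 5 was called by the authors' Wald test, with 3 of 10 at an unadjusted p under 0.05. Of all genes, 5.89% had such a p and were higher in Inv1DelCTCF. Of the Schwann precursor genes 0 of 3 was called. In other lists 1 gene of 10 fell for endothelium (Cdh5), 1 of 12 for limb mesenchyme (Lhx2) and 2 of 6 for erythroid cells (Hba-x and Hbb-bh1), and 0 rose. For endothelium and limb mesenchyme this is near the share of all genes called lower. The part of these shifts in the striated difference was not tested.

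The cardiac and smooth muscle lists bear on which muscle the striated genes report. Of 11 cardiac markers, Nppb and Nkx2-5 were at 0, Nppa had normalised counts of 2.8 to 6.0, and the 4 with a mean of at least 10 summed to 105 to 158. Of those 4, 3 were lowest in Inv1 library b. Gata4 had 24.8, 8.8 and 15.7 in Inv1 and 35.1 and 34.1 in Inv1DelCTCF, and Myh6 likewise lay higher in Inv1DelCTCF. Hcn4 and Ryr2 overlapped between the groups. Myh6 and Myl7 of this list are also contractile members. Whether cardiac-type expression has a part in the striated levels was not tested. Of 14 smooth muscle and pericyte genes, 8 have an adjusted p, of which Notch3 fell (log2 change -0.31, SE 0.09, adjusted p = 0.0155 per the authors' deposited table) and 0 rose. Over all genes with an adjusted p, 7.89% were called lower. Smtn and Pdgfrb had log2 changes of -0.21 and -0.11 and were not called. Acta2, an actin of smooth muscle that early skeletal muscle also makes, had 1963, 930 and 1777 in Inv1 and 2229 and 2133 in Inv1DelCTCF, and Tagln had 162, 131 and 119 against 182 and 128. Acta2 was thus lowest in Inv1 library b as the striated genes were.

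**Figure D5:**
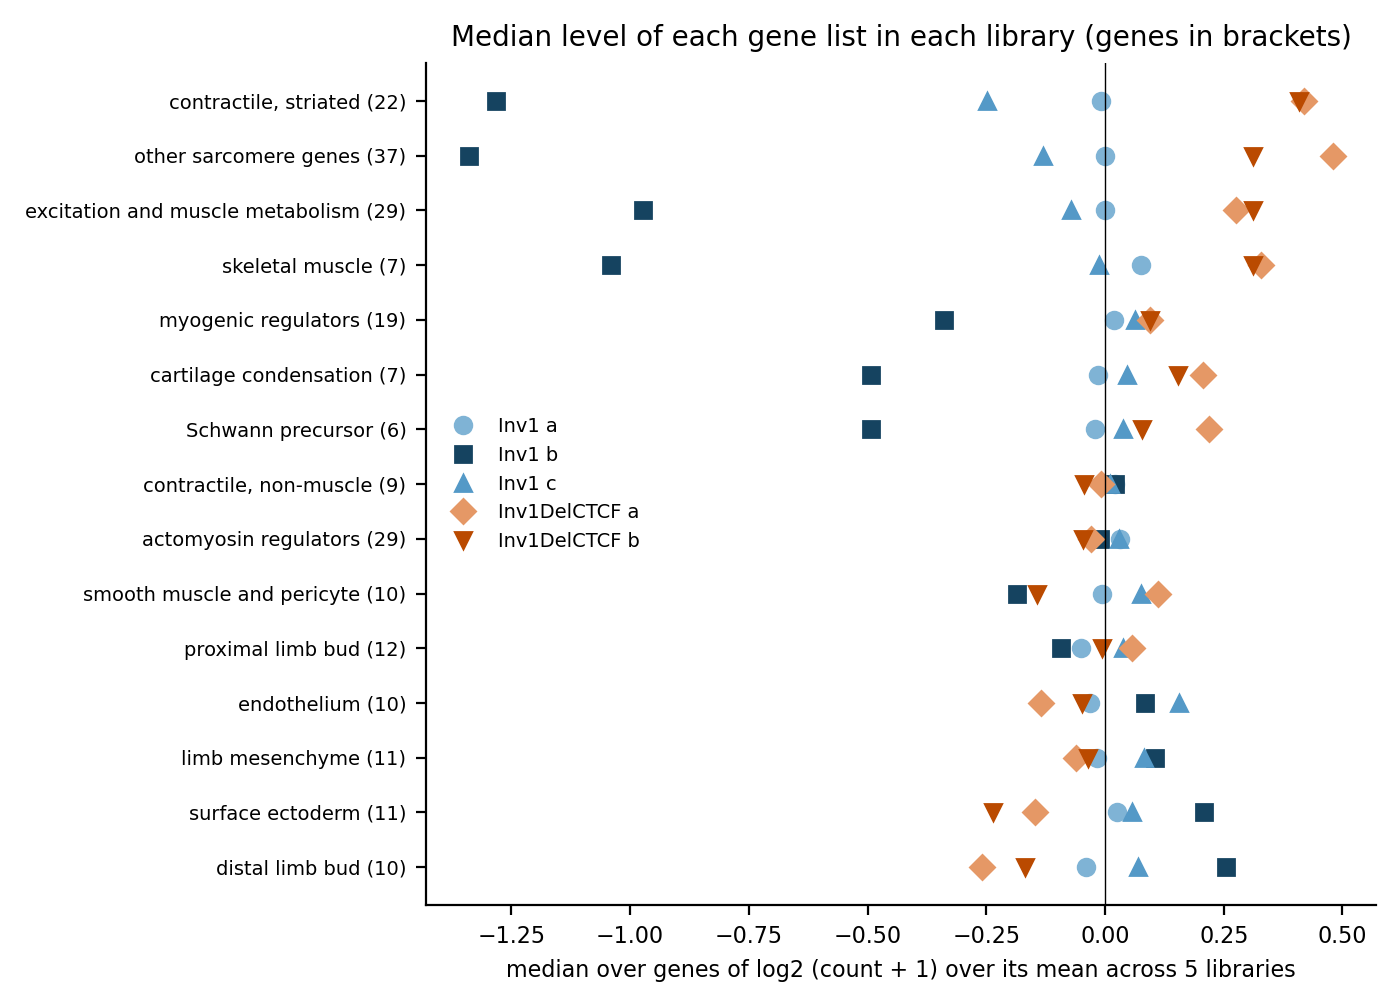
Median over each gene list of the log2 normalised count + 1 relative to its mean over the 5 libraries, 1 symbol per library, with the number of genes in brackets. Inv1 library b is to the left in the muscle, cartilage and Schwann lists, at -1.28 for the striated contractile genes, -0.34 for the myogenic regulators and -0.49 for cartilage, and to the right in the distal limb bud and surface ectoderm lists.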

How the data were processed

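RNA of mouse distal forelimbs was sequenced by the submitters, whose processing notes name STAR, DESeq2 and the build mm9, without versions. The authors deposited tables of their own comparisons. Per the file headers, the deposited table used gives the following for each gene: its normalised count averaged over 5 libraries (a signal), a log2 fold change and SE, a Wald score, a p-value and an adjusted p-value. Members and gene lists were chosen with earlier results of these data known. Named members are all with a mean of at least 10 and all with an adjusted p. For other lists the rule allowed up to 6 called genes and up to 4 uncalled ones of highest mean. The text departs from it: all called genes are named, and the uncalled ones were chosen after their values were seen, without the limit of 4.

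Each pooled mean is a sum of whole reads, each divided by 5 and by a size factor. Genes with 1 read in all gave the 5 size factors, 0.587 to 1.49. In these genes the deposited fold change was positive for 3 libraries and negative for 2, so positive as deposited means higher in Inv1, and the sign was turned. Rebuilding group means from the other tables gave the same sign (median absolute residual 0.0124 over 49 genes, against 0.107 or more for the 3 other conventions). Combinations of whole reads that give a deposited mean were listed. For a mean of at least 20, the one that refits the deposited log2 change was kept. For a mean under 20 the log2 change was not used, and reads were kept where only 1 combination gave the mean. Reads were resolved for 21484 of 21485 genes searched, which have a mean up to 10000 (20000 for listed genes). With a mean of at least 20, a combination was accepted only if its refit lay within 2e-05 of the deposited log2 change. The next combination also had to be at least 10 times farther away. The largest difference among accepted genes of that size, 7.51e-06, is bounded by this rule. The resolved genes hold 68% of the normalised count. Replicate numbers could not be attached to these libraries, and nothing states that they came from separate litters, so a p measures only how these libraries vary.

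Calls rest on the adjusted p of the authors, with a threshold of 0.05. Alternatives used limma 3.58.1 in R 4.3.3 on log2(normalised count + 1), for genes averaging at least 10. Transcript length and GC content came from GENCODE M21, matched for 94% of genes with an adjusted p and for all 25 members with one. Recovery, limma and trend steps were tested on simulated data. Python 3.11.15 was used.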

Additional observations from a re-analysis of the deposited data

How the results depend on the processing

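The authors' test called 3 of 25 contractile genes with an adjusted p, or 12%, against 11.7% of all genes. The number was 1 at an adjusted p under 0.01 (5.13% of all genes), 5 under 0.1 (17.4%), 1 of 42 with adjustment over every row with a p (4.2%), 1 with an absolute log2 change of at least 0.5 (1.55%), and 2 after a trend in GC content and length was subtracted (3.64%). Limma on the recovered reads, added after seeing the data, called 1 with all libraries, and 0 to 15 with 1 library left out in turn. It called 0 without Inv1DelCTCF library a, without Inv1DelCTCF library b and without Inv1 library c, where 6, 3 and 21 members had an unadjusted p under 0.05, 11 without Inv1 library a and 15 without Inv1 library b. Of striated genes 1 was called, 2 at an adjusted p under 0.1, 2 with Tpm1 and Tpm2 counted as striated, and 0 to 13 by limma with 1 library left out. Mybpc1 kept its direction in all 8 alternatives and lost its call without Inv1 library c or either Inv1DelCTCF library, with adjusted p of 0.000432 to 0.288 over the fits that leave out 1 library. Its log2 change was 1.37, 1.45 and 1.12 in those 3 fits, in which 0 of all genes were called. In 2 of them Inv1DelCTCF is a lone library, assumed to vary like the other group. The striated median log2 change ranged from 0.51 without Inv1 library b to 1.02 without Inv1 library a. The lists of pathway and marker genes held 28 calls and 21 to 39 under their alternatives. Those alternatives changed the threshold, the adjustment or the minimum mean. They did not include the trend subtraction or leaving out a library. No paired analysis was possible because the replicate numbers of the labels cannot be attached to the recovered libraries. Depth limits the rows without an adjusted p, which have a mean under 113.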
